A study of Homo sapiens with 5 samples.

Results

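The human receptor tyrosine kinase genes were read in RNA-seq libraries of melanoma cells and melanocytes in which BPTF, the large subunit of the chromatin remodeller NURF, had been targeted by shRNA. The members were 52 genes taken by name from a list of receptor families, without use of their measured values, and matched to Ensembl identifiers. Of the 52, 49 were listed in the count tables of both cell lines, among 31029 genes that both tables list, and 41 had enough counts to be tested. FLT3, ROS1 and EPHA8 were listed for 501Mel only.

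Receptor tyrosine kinases are single-pass membrane proteins that pair up when they bind a ligand, phosphorylate each other on tyrosine and recruit adaptor proteins, which carry the signal to the RAS-MAP kinase and PI3 kinase pathways. In the pigment lineage KIT and its ligand are needed for melanoblasts to survive and migrate, and KIT and MET are known targets of MITF, the master regulator of the lineage. The EPH receptors form the most numerous family and bind ephrins, ligands that are themselves tethered to neighbouring cells.

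The study asked what BPTF does in cells of the melanocyte lineage. The groups were 2 libraries of 501Mel, a human melanoma cell line, and 3 libraries of Hermes 3A, a line of immortalised human melanocytes. All 5 libraries came from cells infected with a lentivirus carrying shBPTF and selected with puromycin. Each line was 1 line, so that a difference between them belongs to these lines and not to melanoma or melanocytes in general.

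No library without shBPTF was analysed here, so the values below are levels in knocked-down cells and a comparison between lines, not the effect of losing BPTF. The lines also grew in different media, that of Hermes 3A holding TPA, cholera toxin, stem cell factor (the KIT ligand) and endothelin-1, so that line and medium cannot be told apart. BPTF itself was at 65.8 and 57.8 CPM (counts scaled to the library total) in 501Mel and at 45.8, 51.6 and 54.1 CPM in Hermes 3A, and without controls its reduction could not be checked.

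Libraries held 30073071 to 43032311 counts. The floor was 3 counts, which equal 0.0697 to 0.0998 CPM, and levels at or below it were taken as not detectable or at the limit of detection. All 7 melanocytic markers were detected in all 5 libraries, with a summed level of 12718 and 19661 CPM in 501Mel and 31650.5 to 32728 CPM in Hermes 3A. Most of the sum came from PMEL and TYRP1, at means of 6669 and 6115 CPM in 501Mel and 16834 and 11954 CPM in Hermes 3A. DCT went the other way, with means of 1184 CPM in 501Mel and 9.76 CPM in Hermes 3A. By the rule for calls given below, DCT was higher in 501Mel, PMEL and MLANA were higher in Hermes 3A, and 4 were not called. Of the 4 keratinocyte markers, KRT5 and KRT1 were listed in neither table KRT14 was listed for 501Mel alone, at 0 and 0.0264 CPM, and KRT10, which is not confined to keratinocytes, was at 32.6 to 47.4 CPM. Of the 4 endothelial markers PECAM1 was listed in neither table, and the others summed to 0.432 to 2.01 CPM. The 5 blood markers, of which CD3E and HBB were listed for Hermes 3A alone, summed to 0.116 to 0.538 CPM. The 5 fibroblast markers summed to 16.3 and 3.35 CPM in 501Mel and to 77.3, 182 and 189 CPM in Hermes 3A, nearly all of the latter from COL1A2, a collagen chain.

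Among the receptors, 8 were higher in 501Mel and 9 were higher in Hermes 3A, of 41 tested. The first group held EPHA2, EPHA3, EPHA4, EPHA7, MERTK, ERBB4, FGFR2 and TIE1. The second held ERBB2, EGFR, DDR1, DDR2, KDR, MST1R, EPHB1, EPHB4 and EPHB6. Calls needed a change of at least 2-fold and an adjusted p, over all genes tested with edgeR's quasi-likelihood test, under 0.05. The 17 called receptors were 41.5% of those tested, and 34.3% of all 17918 genes tested were called, made up of 17.2% higher in 501Mel and 17.1% higher in Hermes 3A. The median size of the log2 fold change, whatever its sign, was 1.14 over the receptors and 0.79 over all genes. The lines differed at many genes, and the share of receptors called was not tested against that of all genes.

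**Figure D1:**
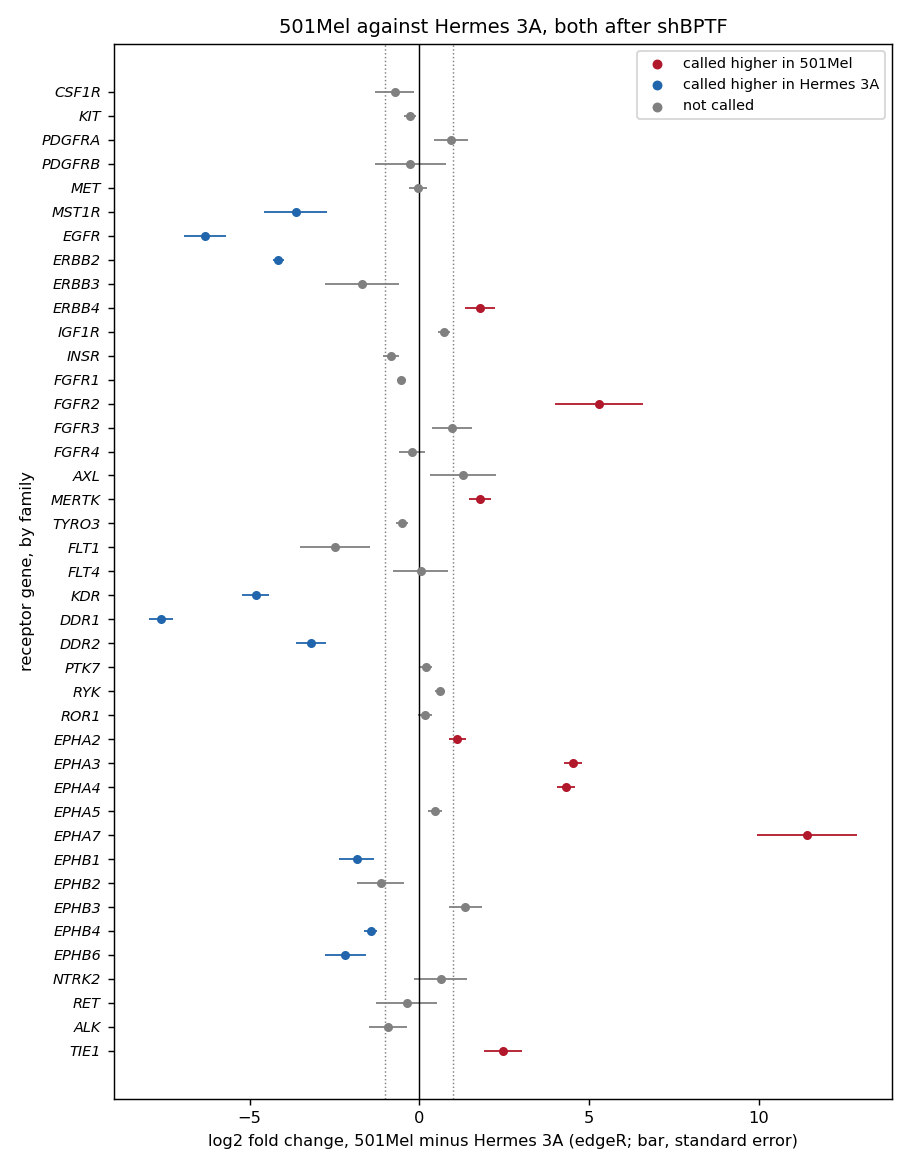
log2 fold change between the lines (501Mel minus Hermes 3A, x axis) for the 41 tested receptors, grouped by family (y axis). Points are edgeR estimates and bars standard errors, dotted lines mark a 2-fold change, and the EPHA7 estimate rests on 0 counts in Hermes 3A and is no measure of size; the A-class EPH receptors lie to the right and DDR1, DDR2, EGFR, ERBB2 and KDR to the left.

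Despite these differences the receptors as a whole took a similar share of the counts. The 52 genes summed to 1914 and 2234 CPM in 501Mel and to 2025, 2101 and 2275 CPM in Hermes 3A, so that the lines overlapped. MET had the highest and KIT the second highest count of the 52 in each library, and together they made up 44.4% to 55.4% of the sum. Of the 49 receptors in both tables, the libraries of the lines overlapped for 22, all 501Mel libraries lay above all Hermes 3A libraries for 14, and below them for 13. The matching counts over all genes were not made, so these counts have no background. The 34.3% of all genes tested that were called rests on adjusted p and fold change, a different measure, and cannot serve as one. With so few libraries, full separation can also arise at genes whose levels do not differ between lines. The counts of 22, 14 and 13 are therefore descriptions only and not to be read as particular to receptors.

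The promoters of 5 receptors are shown. MET had the highest count in each library, though per kb of exon it overlapped KIT in both lines. EPHA3 and EPHA4 were the most abundant of those higher in 501Mel. ERBB2 and DDR1 were among the most abundant of those higher in Hermes 3A. Each promoter is given as the coding-strand sequence from 250 bases before to 50 bases after a RefSeq start listed for the gene (GRCh38.p14). These are reference sequences and were not measured here. They lie at chr7:116671946-116672245 on the plus strand (MET), chr3:89107371-89107670 on the plus strand (EPHA3), chr2:221574153-221574452 on the minus strand (EPHA4), chr17:39687844-39688143 on the plus strand (ERBB2) and chr6:30880720-30881019 on the plus strand (DDR1). Capitals mark CACGTG, the E-box that MITF and related factors bind, searched together with CATGTG on both strands.
MET: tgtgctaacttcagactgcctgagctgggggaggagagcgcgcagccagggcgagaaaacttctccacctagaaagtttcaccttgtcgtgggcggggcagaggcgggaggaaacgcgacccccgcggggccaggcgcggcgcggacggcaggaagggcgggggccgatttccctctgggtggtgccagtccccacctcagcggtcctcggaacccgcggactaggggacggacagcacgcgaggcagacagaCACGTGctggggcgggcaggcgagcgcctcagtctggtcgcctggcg
EPHA3: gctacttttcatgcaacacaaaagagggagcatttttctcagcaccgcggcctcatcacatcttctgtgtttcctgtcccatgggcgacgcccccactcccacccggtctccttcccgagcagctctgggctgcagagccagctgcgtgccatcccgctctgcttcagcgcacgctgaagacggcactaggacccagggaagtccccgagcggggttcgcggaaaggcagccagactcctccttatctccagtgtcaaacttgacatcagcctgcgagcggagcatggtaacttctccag
EPHA4: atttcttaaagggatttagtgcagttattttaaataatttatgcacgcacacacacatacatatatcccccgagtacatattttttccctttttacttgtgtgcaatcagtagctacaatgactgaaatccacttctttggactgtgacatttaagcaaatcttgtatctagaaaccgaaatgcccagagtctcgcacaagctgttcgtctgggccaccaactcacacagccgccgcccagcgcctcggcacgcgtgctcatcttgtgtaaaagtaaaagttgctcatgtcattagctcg
ERBB2: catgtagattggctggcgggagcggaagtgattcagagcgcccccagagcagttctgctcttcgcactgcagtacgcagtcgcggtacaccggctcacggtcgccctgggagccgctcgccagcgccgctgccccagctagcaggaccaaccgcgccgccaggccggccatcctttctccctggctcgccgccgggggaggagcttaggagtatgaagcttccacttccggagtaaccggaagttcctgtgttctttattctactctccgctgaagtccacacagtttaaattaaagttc
DDR1: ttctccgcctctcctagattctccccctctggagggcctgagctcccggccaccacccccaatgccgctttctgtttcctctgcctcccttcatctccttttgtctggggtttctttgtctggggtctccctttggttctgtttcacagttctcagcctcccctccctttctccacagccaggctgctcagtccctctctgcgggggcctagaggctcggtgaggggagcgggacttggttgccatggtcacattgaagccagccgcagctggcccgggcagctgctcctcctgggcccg
RefSeq promoters matched 48 of the 52 receptors. CACGTG was in 3 of them (6.25%) and in 7.26% of all 35116 RefSeq promoters of that length, and CATGTG was in 4 (8.33%) against 11.1%. Of the 5 shown, MET alone held either motif, a CACGTG that begins 3 bases after the start. The other receptor promoters with CACGTG were those of FLT3 and EPHA8, which were not tested, while that of KIT held neither motif. EPHA3, EPHA4, ERBB2 and DDR1 held neither in this window, which says nothing of sites elsewhere. Windows at other starts of these genes were not searched, and the start used in these cells was not determined.

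KIT, the stem cell factor receptor, was at 398 and 389 CPM in 501Mel and at 490, 389 and 479 CPM in Hermes 3A. The lines overlapped, and the log2 fold change was -0.27 ± 0.18 (SE), with an edgeR adjusted p of 0.237. Its ligand gene KITLG was at 27.4 and 17.8 CPM in 501Mel and at 17.3, 8.49 and 9.54 CPM in Hermes 3A, each 501Mel library above each Hermes 3A library, but it was not called (log2 fold change 0.85, adjusted p 0.0957). Hermes 3A received the factor in its medium as well.

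MET, the hepatocyte growth factor receptor, was at 451 and 807 CPM in 501Mel and at 631, 604 and 622 CPM in Hermes 3A. The 501Mel libraries lay on either side of all 3 Hermes 3A libraries, and no difference passed the test (log2 fold change -0.04 ± 0.26 (SE), adjusted p 0.914). HGF, which encodes its ligand, had 0.0528 to 0.171 CPM over the 5 libraries and was too low to test. MST1R, the related receptor for macrophage-stimulating protein, had 0 and 3 counts in 501Mel and 21, 25 and 10 counts in Hermes 3A. It was higher in Hermes 3A (adjusted p 0.0157), with a ratio of summed rates of 13.4 and an exact 95% interval of 4.36 to 67.0 for counting error alone, and was not called without 501Mel replicate 1 (adjusted p 0.077). Its ligand gene MST1 was not called (adjusted p 0.0866).

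Levels of different receptors were compared per kb of exon, which takes account of gene length. In 501Mel the order was MET at 89.4 ± 35.7 CPM per kb (SD, n = 2), KIT at 70.7 ± 1.15, EPHA3 at 25.8 ± 8.37, IGF1R at 15.6 ± 2.85 and EPHA4 at 13.3 ± 4.84. MET and KIT overlapped, as did IGF1R and EPHA4, while KIT lay above EPHA3 and EPHA3 above IGF1R in both libraries. In Hermes 3A it was MET at 87.9 ± 1.99 CPM per kb (SD, n = 3), KIT at 81.4 ± 9.95, ERBB3 at 16.2 ± 10.0, EPHB4 at 11.8 and DDR1 at 11.6. There too MET and KIT overlapped, and the libraries of KIT did not overlap those of ERBB3, but the levels from ERBB3 to ERBB2 at 11.3 did not separate. With the length of the longest coding transcript in place of all exons, 3 of the leading 5 were kept in 501Mel, where RYK and PTK7 replaced IGF1R and EPHA4, and 4 of 5 in Hermes 3A, where ERBB2 replaced EPHB4.

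The EPH receptors were called in both directions. Of the 9 A-class receptors, 5 were tested, and EPHA2, EPHA3, EPHA4 and EPHA7 were higher in 501Mel, where 17.2% of all genes were. The other, EPHA5, was not called, and 4 were too low to test. Of the 5 B-class receptors, all tested, EPHB1, EPHB4 and EPHB6 were higher in Hermes 3A, where 17.1% of all genes were. EPHB2 and EPHB3 were not called, and the fold change of EPHB3 pointed to 501Mel. A difference between the classes was not tested. The A class summed to 267 and 388 CPM in 501Mel and to 34.9, 39.3 and 46.8 CPM in Hermes 3A, and the B class to 39.4 and 26.6 CPM against 70.5, 85.4 and 89.1 CPM. The lines did not overlap for either sum.

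EPHA3, a receptor for A-class ephrins, was at 133 and 212 CPM in 501Mel and at 5.40, 7.54 and 8.61 CPM in Hermes 3A, 24-fold higher by mean level. Every 501Mel library lay well above every Hermes 3A library (log2 fold change 4.53 ± 0.27 (SE), edgeR adjusted p 4.8e-05). EPHA4, which binds ephrins of both classes, was at 74.9 and 127 CPM against 4.44, 5.78 and 4.32 CPM, 20.8-fold higher by mean level. It too did not overlap between lines (log2 fold change 4.32 ± 0.27 (SE), adjusted p 5.5e-05).

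EPHA7, another A-class receptor, had 675 and 99 counts in 501Mel, or 15.7 and 2.62 CPM, and 0 counts in all 3 Hermes 3A libraries. Against a floor of 3 counts per library it was at least 112-fold higher in 501Mel (edgeR adjusted p 0.00271), but its 501Mel libraries differed 6.00-fold from each other, and the bound was 32.0-fold with replicate 2 alone and 192-fold with replicate 1 alone. EPHA2, a receptor for ephrin-A1, was at 14.0 and 12.2 CPM in 501Mel and at 5.83, 5.14 and 6.32 CPM in Hermes 3A. The lines did not overlap, though the change was near the 2-fold limit (log2 fold change 1.11 ± 0.25 (SE), adjusted p 0.00889), and without Hermes 3A replicate 2 it was not called (adjusted p 0.0513). EPHA5 was at 28.9 and 34.5 CPM against 18.9, 20.4 and 27.3 CPM and was not called (adjusted p 0.114), although the libraries did not overlap.

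EPHB4, the receptor for ephrin-B2 known from vessels, was at 34.2 and 24.5 CPM in 501Mel and at 65.9, 79.0 and 83.4 CPM in Hermes 3A. All Hermes 3A libraries were higher (log2 fold change -1.44 ± 0.19 (SE), edgeR adjusted p 0.000999). EPHB1 had 15 and 6 counts against 34, 39 and 27, a log2 fold change of -1.85 with an adjusted p of 0.0211. EPHB6, whose kinase domain is inactive, had 39 and 8 counts against 97, 106 and 72, a log2 fold change of -2.18 with an adjusted p of 0.0223. Both of these low-count calls were lost without 501Mel replicate 2 (highest adjusted p 0.126 for EPHB1 and 0.0571 for EPHB6). EPHB3 leaned the other way, with 124 and 57 counts against 21, 37 and 32, and was not called (adjusted p 0.0515), though it passed with DESeq2 (adjusted p 0.0301), with limma-voom (0.0481) and without 501Mel replicate 2 (0.0493). EPHB2 was not called either (adjusted p 0.21), except without 501Mel replicate 1 (log2 fold change -2.75, adjusted p 0.036).

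The ephrin genes were read beside them. EFNA5 was at 14.3 and 11.1 CPM in 501Mel and at 0.528, 0.269 and 0.233 CPM in Hermes 3A, a log2 fold change of 5.10 with an edgeR adjusted p of 0.000206. EFNA3 was also higher in 501Mel (log2 fold change 1.32, adjusted p 0.02), and EFNB3 was higher in Hermes 3A (log2 fold change -1.26). EFNA2 was higher there too, with 2 counts over the 501Mel libraries against 27, a ratio of rates of 9.70 (exact 95% interval 2.44 to 84.2, for counting error alone). EFNA1, EFNA4, EFNB1 and EFNB2 were tested and not called.

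The ERBB receptors, which bind EGF-like growth factors and neuregulins, differed in opposite directions. ERBB2, which has no ligand of its own and pairs with the others, was at 7.34 and 6.42 CPM in 501Mel and at 112, 117 and 121 CPM in Hermes 3A, 17.0-fold higher in the latter by mean level. Replicates were close in both lines (log2 fold change -4.15 ± 0.16 (SE), edgeR adjusted p 1.2e-05). EGFR had 5 and 1 counts in 501Mel, or 0.116 and 0.0264 CPM, and 6.12, 4.82 and 6.38 CPM in Hermes 3A. It was higher in Hermes 3A (log2 fold change -6.31 ± 0.61 (SE), adjusted p 0.000299), with a level at or near the floor in 501Mel. The log2 fold change was -7.66 without 501Mel replicate 1 and -5.69 without 501Mel replicate 2. ERBB4, a neuregulin receptor, went the other way with 57 and 36 counts against 15, 11 and 9 (log2 fold change 1.796, adjusted p 0.0133), a call lost without 501Mel replicate 1 or without Hermes 3A replicate 2 (highest adjusted p 0.102).

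ERBB3, whose kinase activity is weak and which signals through its partners, was at 90.03 and 4.68 CPM in 501Mel and at 42.2, 195 and 202 CPM in Hermes 3A. One library of each line was far from its fellows: the 501Mel libraries differed 19.3-fold and the Hermes 3A libraries up to 4.80-fold. The lines overlapped and ERBB3 was not called (log2 fold change -1.68 ± 1.10 (SE), adjusted p 0.241), whereas without 501Mel replicate 1 the log2 fold change was -5.01 with an adjusted p of 0.0152.

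Ligands of the ERBB family were called in both directions. BTC (betacellulin) was listed at 0 in both 501Mel libraries and had 1.97, 0.367 and 0.133 CPM in Hermes 3A, at least 11.05-fold higher by mean level against the floor of 3 counts per library but 1.79-fold in the lowest library. NRG1 was at 0.488 and 0.0264 CPM against 8.69, 3.01 and 4.16 CPM and TGFA at 0.232 and 0.106 CPM against 4.01, 1.88 and 3.56 CPM, both higher in Hermes 3A. NRG2 was at 13.5 and 15.9 CPM against 1.99, 2.50 and 2.23 CPM, higher in 501Mel with an edgeR adjusted p of 0.000335. HBEGF, EGF and NRG3 were higher in 501Mel as well.

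The discoidin receptors DDR1 and DDR2, which bind collagen, were both higher in Hermes 3A. DDR1 was at 0.744 and 0.370 CPM in 501Mel and at 123, 99.3 and 94.1 CPM in Hermes 3A, 189-fold higher by mean level. No other receptor with counts in every library had a larger fitted change (log2 fold change -7.61 ± 0.35 (SE), edgeR adjusted p 2.1e-05). DDR2 was at 3.69 and 7.18 CPM against 35.0, 38.5 and 70.3 CPM, without overlap (log2 fold change -3.20 ± 0.44 (SE), adjusted p 0.00123).

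COL1A2, which encodes a chain of the collagen these receptors bind, was at 0.0697 and 0.106 CPM in 501Mel and at 69.5, 180 and 187 CPM in Hermes 3A. The other fibroblast markers did not follow it: in Hermes 3A COL1A1 was at 0.456 to 1.05 CPM, COL3A1 at 0 to 0.299 CPM, DCN at 0.0333 to 0.049 CPM and LUM at 0.964 to 7.35 CPM. Their means in 501Mel were 3.63 CPM for COL1A1, 0.644 for COL3A1, 0.134 for DCN and 5.33 for LUM, each above the Hermes 3A mean. COL1A1, COL3A1 and LUM were not called (edgeR adjusted p 0.0508, 0.168 and 0.605), and DCN was too low to test. The part of other cells in the receptor differences was not tested. CD44, a cell surface glycoprotein that serves MET and ERBB receptors as a co-receptor, was at 0.372 and 0.159 CPM in 501Mel and at 785, 1147 and 1115 CPM in Hermes 3A, a log2 fold change of -11.92 with an adjusted p of 9.2e-06.

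KDR, a VEGF receptor best known from endothelium, was at 0.395 and 0.370 CPM in 501Mel and at 12.4, 8.64 and 10.1 CPM in Hermes 3A. The lines did not overlap (log2 fold change -4.82 ± 0.39 (SE), edgeR adjusted p 0.000146). In Hermes 3A the endothelial markers CDH5 and CLDN5 had at most 0.0979 CPM and VWF at most 0.514 CPM. VWF was itself higher in Hermes 3A (log2 fold change -1.73, edgeR adjusted p 0.0291). CLDN5 was higher in 501Mel (log2 fold change 5.23), and PECAM1 was listed in neither table. The part of endothelial cells in the level of KDR was not tested. FLT1 had 2 and 2 counts against 18, 14 and 1 and was not called (adjusted p 0.0858, but 0.0239 with a replicate block and 0.0153 without Hermes 3A replicate 3), and FLT4 was at 0.0480 to 0.432 CPM. VEGFA was at 45.0 and 58.5 CPM in 501Mel and at 38.1, 35.4 and 34.3 CPM in Hermes 3A, above in each 501Mel library but not called (adjusted p 0.0654). VEGFB was higher in Hermes 3A, at 141, 160 and 156 CPM against 73.1 and 79.9 CPM (log2 fold change -1.05, edgeR adjusted p 0.000885). VEGFD, a ligand of FLT4, was higher in 501Mel, at 1.16 and 1.90 CPM against 0.288, 0.783 and 0.333 CPM (adjusted p 0.0407), while VEGFC and PGF were not called.

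In the TAM family, receptors for GAS6 and protein S, MERTK was higher in 501Mel. It was at 38.3 and 30.2 CPM against 13.2, 8.47 and 6.72 CPM, without overlap (log2 fold change 1.78 ± 0.32 (SE), edgeR adjusted p 0.0036). TYRO3 was at 58.4 and 43.7 CPM against 76.0, 62.0 and 69.5 CPM and was not called (adjusted p 0.0574). AXL had 131 and 7 counts in 501Mel and 42, 18 and 12 in Hermes 3A, and the 501Mel libraries lay on either side of the others (adjusted p 0.307, and 0.0418 without 501Mel replicate 2). Both ligand genes were higher in Hermes 3A, GAS6 at 13.8, 18.5 and 18.4 CPM against 3.07 and 2.32 CPM, and PROS1 at 256, 181 and 185 CPM against 86.6 and 86.2 CPM.

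IGF1R, INSR, FGFR1 and RYK passed the adjusted p but changed less than 2-fold, and so were not called. IGF1R, the receptor for insulin-like growth factors, was at 245 and 189 CPM in 501Mel and at 97.9, 137 and 142 CPM in Hermes 3A (log2 fold change 0.73 ± 0.19 (SE), edgeR adjusted p 0.0158). INSR, the insulin receptor, was at 9.99 and 14.8 CPM against 19.2, 23.0 and 22.3 CPM (log2 fold change -0.85, adjusted p 0.0215), and was called without 501Mel replicate 2 (log2 fold change -1.19). All libraries of the lines were apart for both genes, in opposite directions. IGF1 was higher in Hermes 3A (log2 fold change -1.52, adjusted p 0.0132), at 3.38 to 4.79 CPM there and at 1.37 and 1.72 CPM in 501Mel, and IGF2 had at most 0.0333 CPM in any library.

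FGFR1 was at 67.8 and 76.9 CPM in 501Mel and at 95.0, 107 and 99.9 CPM in Hermes 3A, without overlap (log2 fold change -0.54, edgeR adjusted p 0.0144). FGFR4 was at 12.7 and 5.23 CPM against 8.35, 11.4 and 9.98 CPM, and the lines overlapped (adjusted p 0.68). FGFR2 had 405 and 14 counts in 501Mel, or 9.41 and 0.370 CPM, and 1, 8 and 4 counts in Hermes 3A. It was called higher in 501Mel (log2 fold change 5.29 ± 1.29 (SE), adjusted p 0.0127), a call that rests on 501Mel replicate 1 and was lost without it (log2 fold change 1.59), with a replicate block and with limma-voom (highest adjusted p 0.278). FGFR3 had 322 and 66 counts against 71, 108 and 73 and was not called (adjusted p 0.205, and 0.0207 without 501Mel replicate 2). Of the FGF ligands, FGF5 was at 0.279 and 0.608 CPM against 39.1, 16.2 and 15.6 CPM and FGF7 at 0.883 and 0.449 CPM against 15.9, 9.37 and 13.1 CPM, both higher in Hermes 3A.

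RYK, a Wnt receptor with an inactive kinase domain, was at 85.7 and 103 CPM in 501Mel and at 61.4, 58.1 and 57.6 CPM in Hermes 3A, without overlap (log2 fold change 0.61, edgeR adjusted p 0.0126). PTK7, another pseudokinase of Wnt signalling, was at 80.9 and 111 CPM against 70.8, 81.9 and 89.7 CPM, and ROR1, a receptor for WNT5A, at 29.7 and 25.1 CPM against 18.0, 23.7 and 28.7 CPM. Both overlapped between lines, with adjusted p of 0.42 and 0.56. WNT5A was at 8.23 and 10.7 CPM against 5.93, 2.37 and 3.09 CPM and was not called (adjusted p 0.0556).

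The remaining receptors were low, with a mean of at most 4.89 CPM in either line for the 29 outside the group of 23 plotted by library. TIE1 was called among them, with 14 and 16 counts against 2, 3 and 2 (log2 fold change 2.46, edgeR adjusted p 0.0103), and lost its call without either 501Mel library (highest adjusted p 0.0957). PDGFRA, PDGFRB, CSF1R, NTRK2, RET and ALK were tested and not called. Both 501Mel libraries had 3 counts or fewer for 9 receptors, MST1R, FLT1, FLT3, NTRK3, ROS1, TEK, MUSK, EPHA6 and EPHA8, and all Hermes 3A libraries for 6, ROR2, TEK, TIE1, MUSK, EPHA6 and EPHA7. Expression of these was not detectable or at the limit of detection at this depth. FLT3, NTRK3, ROR2, LTK, ROS1, TEK, MUSK, EPHA1, EPHA6, EPHA8 and EPHA10 were not tested.

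The 501Mel libraries differed from each other at several receptors. Of 25 receptors with a mean of at least 50 counts in 501Mel, 7 (28%) differed more than 2-fold between replicates, against 6.88% of 13087 genes of that level. The 7 were FGFR2 (25.4-fold), ERBB3 (19.3-fold), AXL (16.5-fold), EPHA7 (6.00-fold), FGFR3 (4.29-fold), PDGFRA (2.71-fold) and FGFR4 (2.43-fold). All 7 were higher in replicate 1, as were 635 of the 901 genes (70.5%) that differed this much. Of the 194 genes that differed more than 5-fold, 187 were higher in replicate 1, as were all 4 such receptors. In Hermes 3A 3 of 25 receptors differed more than 2-fold, ERBB3, EPHB2 and DDR2, each lowest in replicate 1, or 12% against 13.0% of 12993 genes. These shares are descriptions of single pairs or triplets of libraries and were not tested.

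**Figure D2:**
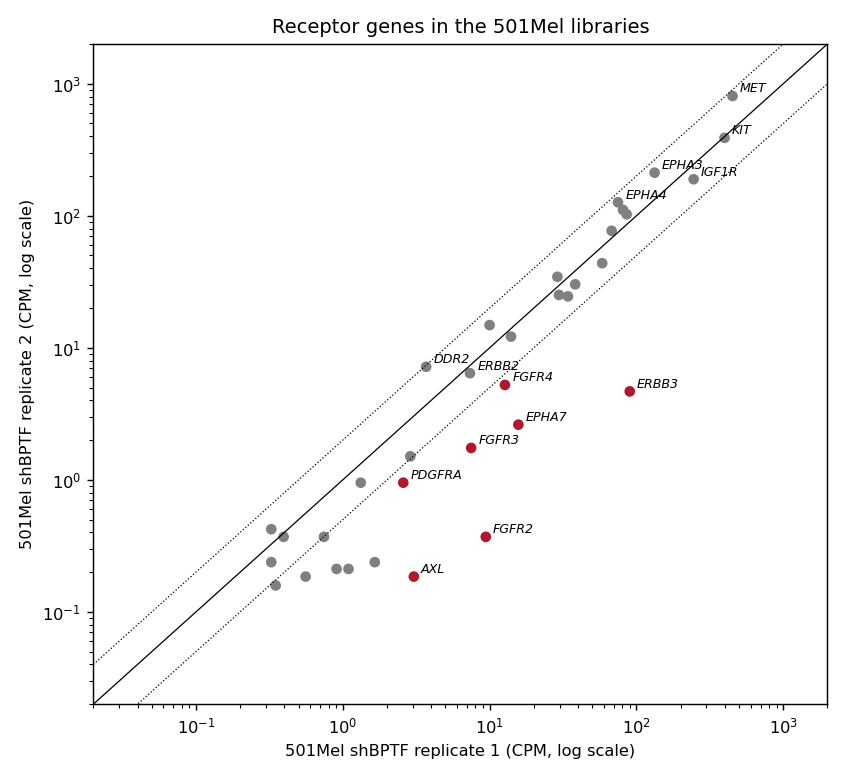
Receptor levels in 501Mel replicate 1 (x axis) against replicate 2 (y axis), in CPM on log scales, for receptors with at least 20 counts over both libraries. The solid line marks equal levels and dotted lines a 2-fold difference; the 7 receptors in red, of at least 50 counts on average, lie below the lower dotted line, while KIT, IGF1R and ERBB2 lie near the solid line.

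Ligands of the receptor families were listed as 71 genes, of which 48 were tested, 12 were higher in 501Mel and 17 were higher in Hermes 3A (60.4% called, against 34.3% of all genes). The largest fitted changes toward Hermes 3A were those of NTF3, CSF1, BTC and FGF5, of which NTF3 and BTC rest on 0 counts in 501Mel, so that their place among the 4 says nothing of their size. NTF3, the neurotrophin for NTRK3, was listed at 0 in both 501Mel libraries and at 3.79, 4.48 and 4.06 CPM in Hermes 3A, at least 55.2-fold higher against the floor of 3 counts per library. CSF1, the ligand of CSF1R, was at 0.116 and 0.0264 CPM against 46.8, 28.8 and 31.4 CPM (log2 fold change -8.93, edgeR adjusted p 5.4e-05). Their receptors NTRK3 and CSF1R stayed at or below 0.0998 and 0.665 CPM in every library. BDNF, a ligand of NTRK2, was at 1.02 and 0.634 CPM in 501Mel and at 54.6, 10.4 and 8.35 CPM in Hermes 3A (log2 fold change -4.98, edgeR adjusted p 0.00683).

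The largest fitted changes toward 501Mel were those of PDGFB, EFNA5, PDGFD and ANGPT1, of which PDGFB rests on 0 counts in Hermes 3A. PDGFD was at 39.6 and 45.7 CPM in 501Mel against 2.81, 2.62 and 2.03 CPM (log2 fold change 4.03, edgeR adjusted p 4.4e-05). PDGFB was low, at 0.581 and 0.264 CPM against 0 in all Hermes 3A libraries, at least 5.17-fold higher against the floor. ANGPT1, the ligand of TEK, was at 5.25 and 11.4 CPM against 1.37, 0.392 and 0.266 CPM, while TEK itself had at most 1 count in any library. NRTN, a ligand of the RET complex, was close behind at 9.88 and 6.52 CPM against 0.264, 1.00 and 0.898 CPM (log2 fold change 3.46, edgeR adjusted p 0.00217). The PDGF receptors were not called: PDGFRA had 111 and 36 counts against 40, 37 and 23, and PDGFRB 11 and 3 against 14, 9 and 0.

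Of 12 co-receptors, 8 were tested, 1 was higher in 501Mel and 3 were higher in Hermes 3A (50% called, against 34.3% of all genes). Beside CD44 these were GFRA1, the GDNF co-receptor of RET, at 0.442 and 0.132 CPM against 41.9, 30.4 and 31.3 CPM, and NGFR, the neurotrophin receptor without kinase, at 0.511 and 0.106 CPM against 10.3, 7.51 and 6.19 CPM. GDNF was higher in Hermes 3A too (log2 fold change -4.89, edgeR adjusted p 0.00211), while RET had 14 and 1 counts against 9, 14 and 3. LRP4, the agrin co-receptor, was higher in 501Mel (58.9 and 53.8 CPM against 12.4, 20.5 and 16.3 CPM).

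Of 44 adaptor and signalling genes just downstream, 43 were tested, 5 were higher in 501Mel and 11 were higher in Hermes 3A (37.2%, near the 34.3% of all genes). SRC, a kinase recruited by many receptors, was at 0.674 and 0.238 CPM in 501Mel and at 59.3, 74.6 and 86.9 CPM in Hermes 3A (log2 fold change -7.36, edgeR adjusted p 4.3e-05). The docking protein DOK5 was at 0.163 and 0.0528 CPM against 28.8, 24.7 and 24.6 CPM (log2 fold change -7.91). DOK2 had 1 count over both 501Mel libraries and 112 over those of Hermes 3A, a ratio of rates of 80.5 (exact 95% interval 14.1 to 3206), and IRS4 had 2 against 141, a ratio of 50.6 (13.8 to 422). These intervals cover counting error only.

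Higher in 501Mel among the adaptors were DOK6, DOK3, SHC3 and GRB10, with PIK3CA. GRB10, which binds the insulin and IGF1 receptors, was at 103 and 135 CPM against 31.3, 38.6 and 33.4 CPM (log2 fold change 1.73, edgeR adjusted p 0.00029). DOK6 had 55 counts over both 501Mel libraries and 1 over the Hermes 3A libraries, a ratio of 76.6 (exact 95% interval 13.2 to 3078), and DOK3 and SHC3 had log2 fold changes of 2.61 and 1.93. The common adaptors GRB2 and SHC1 were not called.

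Of 19 negative regulators, 17 were tested, 4 were higher in 501Mel and 0 were higher in Hermes 3A (23.5% called by edgeR, against 34.3% of all genes). In the Hermes 3A direction 3 had an unadjusted p under 0.05 with edgeR and 0 were called by DESeq2 or limma-voom, but 1, SOCS3, was called by edgeR without Hermes 3A replicate 1. UBASH3B and SOCS2, higher in Hermes 3A, passed the edgeR adjusted p (0.00524 and 0.0172) but changed less than 2-fold (log2 fold change -0.85 and -0.60). LRIG2 and PTPRJ did the same toward 501Mel (log2 fold change 0.78 and 0.61). CBLB, a ubiquitin ligase that removes active receptors, was at 161 and 132 CPM in 501Mel and at 35.3, 35.5 and 30.3 CPM in Hermes 3A (log2 fold change 2.05, edgeR adjusted p 0.000112). ERRFI1, an inhibitor of EGFR, was at 30.4 and 20.02 CPM against 4.92, 5.36 and 5.39 CPM, in the line where EGFR was near the floor. The receptor phosphatase PTPRF was at 61.0 and 48.9 CPM against 9.96, 8.27 and 7.91 CPM, and LRIG3 had a log2 fold change of 1.48.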

How the data were processed

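Total RNA was depleted of ribosomal RNA and the libraries were normalised with a duplex-specific nuclease, which removes abundant cDNA and may compress high levels. The authors deposited raw counts per Ensembl gene, 1 table a library. The submitters' processing notes name CASAVA 1.8, TopHat 1.4.1, Bowtie 0.12.7 and hg19, while the counting program, its use of strand and the annotation are not given in the sources used here. Overlapping and antisense genes may therefore share counts. Tables of the lines list different genes, and the 31029 in both were used. Names and exon lengths came from GENCODE (29317 identifiers matched), whose lengths need not be those used for counting.

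Counts were tested with edgeR 4.0.16 in R 4.3.3 (TMM factors on whole-library totals, filterByExpr, quasi-likelihood, Benjamini-Hochberg over all genes tested), and log2 fold changes are 501Mel minus Hermes 3A. CPM was computed from whole totals. Alternatives were RLE and upper-quartile scaling, no filter, a replicate block, DESeq2 1.42.0, limma-voom 3.58.1, leaving out each library, adjusted p alone, and, added after seeing the data, no scaling and genes of either table. Intervals on ratios used scipy 1.17.1. The script for edgeR was tested on simulated data.

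The labels number replicates and do not say that they were separate cultures, so p-values measure only the spread between these libraries. Counts differed between replicates far beyond sampling noise (chi-square per gene at least 19.4). Which shBPTF construct each library received is not given in the sources used here. The 52 receptors were taken by family name and no value decided which were included, but the choice of receptors as the subject, and of the other lists, was made with earlier results of these data known. Receptors with a mean of at least 5 CPM in either line are given for every library, others by counts, and called genes of each list by largest change, up to 4 in each direction, beside the ligands of receptors described. CD44, COL1A2 and other genes outside that rule are named because a receptor's values are read beside them.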

Additional observations from a re-analysis of the deposited data

How the results depend on the processing

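The 17 calls were compared over 13 alternatives a receptor. Of 377 values over 29 receptors, 360 kept direction and side of the threshold, 11 kept direction but were no longer called, 2 became called and 4 reversed. The reversals were all of uncalled receptors: MET without scaling (log2 fold change 0.0236) and without 501Mel replicate 1 (0.32; leaving out single libraries gave -0.55 to 0.32), FGFR4 without 501Mel replicate 2 (0.27; -0.98 to 0.27) and PTK7 without 501Mel replicate 2 (-0.0865; -0.0865 to 0.40). The number called higher in 501Mel was 5 to 10 when single libraries were left out, 5 of them without 501Mel replicate 1, against 8 with all, and the number higher in Hermes 3A was 8 to 10. Leaving out 1 501Mel library moved the fold change of 8 called receptors by over 1.5 times. Without replicate 1 the log2 fold change was 1.59 for FGFR2, -3.57 for EPHB6, -2.52 for EPHB1, -8.21 for DDR1 and -7.66 for EGFR, and without replicate 2 it was 6.22 for FGFR2, -1.52 for EPHB6, -3.78 for DDR2 and -5.69 for EGFR. MST1R and EPHA7 moved as well, but their fits rest on 0 counts in some or all libraries of a line. Among negative regulators 8 passed the adjusted p alone, against 4 with the 2-fold limit added. With the replicate block 17 receptors were called, 7 higher in 501Mel and 10 higher in Hermes 3A, 16 shared with the fit without it. The numbers give 2 pairs only, with correlations of deviations of 0.109 and 0.149, and do not show that libraries were paired. DESeq2 called 18 receptors, the 17 and EPHB3. Outside the 29, AXL, FGFR3, FLT1, EPHB2 and EPHB3 were each called under at least 1 alternative and in the direction of their fold change. DESeq2 and the fit without a filter moved the median of all genes to 0.14 and 0.13 on the log2 scale, against 0.02. With 2 libraries of 501Mel, a receptor whose replicates disagree, such as ERBB3, FGFR2 or EPHA7, has an uncertain level there, and counts under about 50 are limited by depth.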
